A study of Homo sapiens with 4 samples.

Results

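The 9 genes described here were listed for the plasminogen activation system and taken by exact gene name from a deposited table of 57659 genes. Most make, bind or inhibit the plasminogen activators, or hold plasminogen at the cell surface. The list holds the activators PLAU and PLAT, the activator receptor PLAUR, and the serpins SERPINE2, SERPINB2 and SERPINB8. It also holds the plasminogen-binding surface proteins ANXA2, S100A10 and PLGRKT. SERPINB8 is an inhibitor of furin-like and trypsin-like proteases. The cells were 786-0, an established human renal cell carcinoma line, and poly(A) RNA was sequenced as single-end reads. One group of 2 libraries came from 786-0 cells transfected with siRNA against SLFN5, a member of the Schlafen family, and the other group of 2 libraries from 786-0 cells transfected with control siRNA. The series title is about how SLFN5 bears on the movement and invasion of renal carcinoma cells. No label gives the siRNA sequence, the time after transfection or the origin of the libraries of a group, so the p-values below measure the spread between libraries, which may be technical. The design text mentions triplicates, but the analysis here rests on 4 libraries, and the titles carry S371 on library 1 and S374 on library 2 of each group without saying what these mark.

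Plasminogen is a circulating zymogen that urokinase (the product of PLAU) and tissue plasminogen activator (the product of PLAT) cleave to plasmin, a protease that degrades fibrin and extracellular matrix. Urokinase works largely at the cell surface, held there by its glycolipid-anchored receptor, and annexin A2 with its partner S100A10 captures plasminogen beside it. Serpins trap the activators in covalent complexes, which receptors of the LDL-receptor family take up.

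The deposited values are counts that the submitters' processing had adjusted to one common library size, and they are called equalised counts here. They are not whole numbers, but the adjustment could be inverted, and the counts recovered in this way summed to 17117659 and 14700669 in SLFN5 siRNA libraries 1 and 2, and to 31905328 and 13187517 in control siRNA libraries 1 and 2. SLFN5 itself had 167 and 118 equalised counts in SLFN5 siRNA cells, against 420 and 353 in control siRNA cells, a log2 change of -1.45 (SE 0.21, adjusted p = 0.000524). All changes are SLFN5 siRNA minus control siRNA on the log2(equalised count + 1) scale, where the changes of low genes come out too small, and were tested with limma in a single fit of 15640 genes. The fit ties the variance of a gene to its level (an intensity trend), and a gene was called when its Benjamini-Hochberg adjusted p was under 0.05. Of all genes tested 29.6% (4630) were called, 13.3% higher and 16.3% lower. Without the trend 1182 were called (672 higher, 510 lower), and without control siRNA library 2, the shallowest, 2934. The split, 2086 higher and 2544 lower here, also turned with upper-quartile scaling (2435 higher, 2068 lower) and with limma-voom on recovered counts scaled by library totals (2801 higher, 1823 lower), a setting that changes both the model and the scaling and in which the median of all genes moved by 0.12 on the log2 scale. Of 10 markers listed for the renal line, PAX8, VIM, KRT8 and KRT18 were abundant in all libraries. PAX2 was low, at 37.8 and 20.2 equalised counts in SLFN5 siRNA cells, against 46.0 and 68.1 in control siRNA cells. CA9, which clear cell renal carcinomas commonly express, had 4 recovered counts in all. Of the 9 markers tested, CDH6, VEGFA and EPAS1 were called higher and VIM and NNMT lower (55.6% called, beside 29.6% of all tested genes).

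Of the 9 genes, 8 passed the filter on low values (2 or more libraries with 10 or more equalised counts), and 3 of these were called, beside the 29.6% of all tested genes. The urokinase receptor PLAUR and the tissue activator PLAT were lower in SLFN5 siRNA cells, and the serpin SERPINE2 was higher. Urokinase, SERPINB8, ANXA2, S100A10 and PLGRKT were tested and not called, and SERPINB2 had too few counts to be tested. The groups did not overlap for 5 of the 8 tested genes, which was the case for 64.6% of all tested genes (30.5% with SLFN5 siRNA above, 34.1% below). SERPINE2 was above, and PLAUR, PLAT, SERPINB8 and ANXA2 were below.

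**Figure D1:**
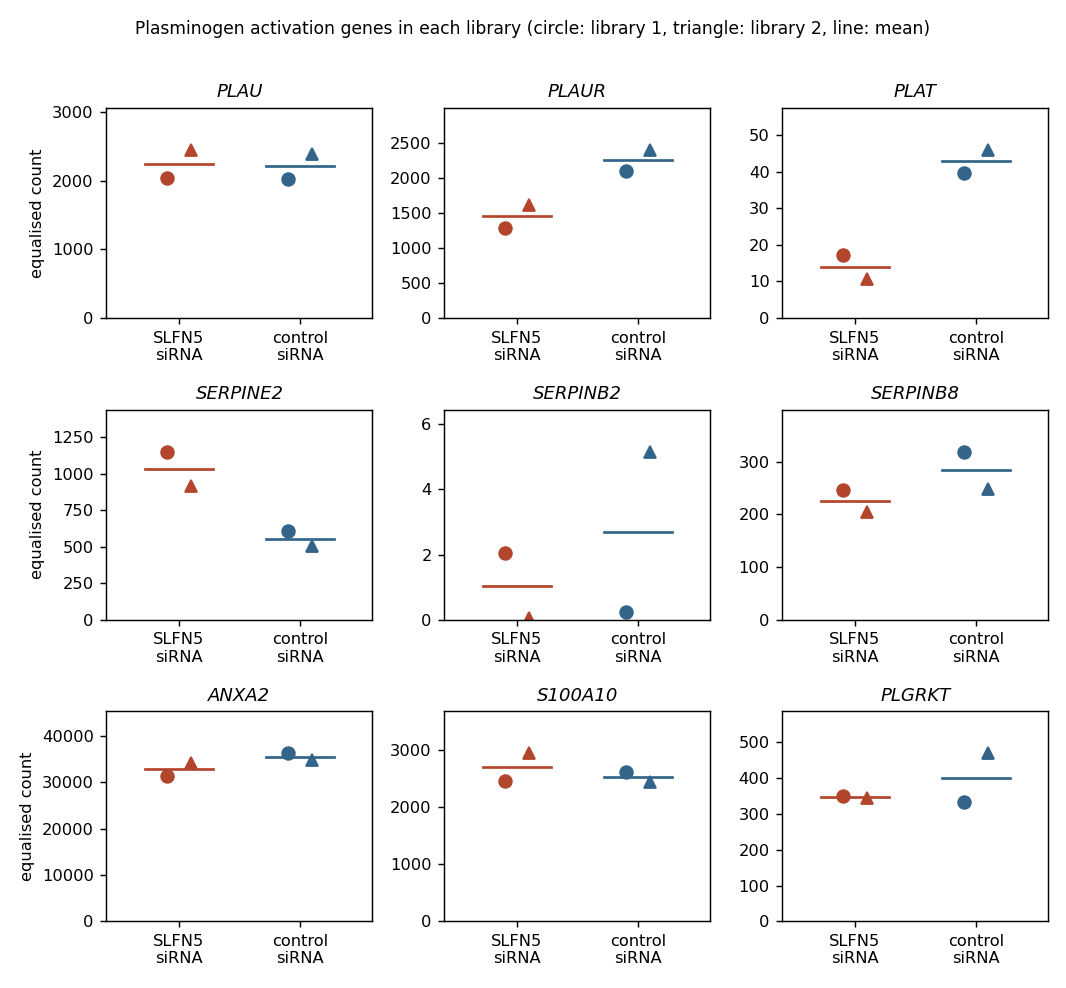
Equalised counts (y axis, linear, from 0) of the 9 genes in the 2 SLFN5 siRNA libraries (red, left) and the 2 control siRNA libraries (blue, right); circles and triangles are libraries 1 and 2, and lines are group means. PLAUR and PLAT lie lower in both SLFN5 siRNA libraries than in both control siRNA libraries, SERPINE2 lies higher, and PLAU overlaps.

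PLAU (ENSG00000122861) encodes urokinase and lies on the plus strand at chr10:73909177-73917497 (GRCh38, GENCODE v29). It had 2030 and 2444 equalised counts in SLFN5 siRNA cells, against 2030 and 2381 in control siRNA cells. The library pairs of the groups lay almost on top of each other, and PLAU was not called (log2 change 0.02, SE 0.13, 95% interval -0.27 to 0.31, adjusted p = 0.934). The interval does not reach the size of the change in PLAUR or in SERPINE2, both given below. Of the 2950 bases of PLAU exons, 916 (31.1%) overlap exons of C10orf55 on the opposite strand, and the library kit as the labels describe it is not stated to keep strand, so reads in the shared stretch cannot be told apart. C10orf55 had 34.8 and 37.1 equalised counts in SLFN5 siRNA cells, against 10.3 and 20.7 in control siRNA cells, far under the level of PLAU (log2 change 1.24, SE 0.47, adjusted p = 0.0667). C10orf55 was not called here, but was called higher with limma-voom on recovered counts, under median-of-ratios scaling (adjusted p = 0.0460) and library totals (adjusted p = 0.0311), and without control siRNA library 2 (adjusted p = 0.0465), and its adjusted p reached 0.380 without control siRNA library 1.

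PLAT (ENSG00000104368) encodes the tissue activator, which is best known for dissolving clots in vessels. It had 17.4 and 10.7 equalised counts in SLFN5 siRNA cells, against 39.8 and 45.9 in control siRNA cells. Both SLFN5 siRNA libraries were under both control siRNA libraries, and PLAT was called lower (log2 change -1.58, SE 0.44, 95% interval -2.54 to -0.62, adjusted p = 0.0187). The reads behind it were few, 17 and 9 recovered counts in the SLFN5 siRNA libraries and 69 and 32 in the control siRNA libraries. The call was lost when SLFN5 siRNA library 2 was left out (-1.25). It was also lost without control siRNA library 1 (-1.68), and without control siRNA library 2 (-1.48). As the groups did not overlap, leaving out 1 library could not turn the direction of PLAT. Without the intensity trend its adjusted p was 0.0506. Per kilobase of exon, PLAT stood at 2.62 and 1.61 equalised counts in SLFN5 siRNA cells and 6.01 and 6.94 in control siRNA cells, while PLAU stood at 688 and 828 in SLFN5 siRNA cells and 688 and 807 in control siRNA cells. Urokinase was thus the more abundant activator transcript in each of the 4 libraries.

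PLAUR (ENSG00000011422) encodes the urokinase receptor, which focuses urokinase at the leading edge of migrating cells and lacks a cytoplasmic part of its own. It lies on the minus strand at chr19:43646095-43670547 (GRCh38, GENCODE v29). PLAUR had 1290 and 1618 equalised counts in SLFN5 siRNA cells, against 2101 and 2396 in control siRNA cells. The groups were apart, and PLAUR was called lower, at 0.644 times the control level (log2 change -0.63, SE 0.14, 95% interval -0.93 to -0.34, adjusted p = 0.00485). The change was between -0.80 and -0.47 when any 1 library was left out, and the call held in each of these 4 fits, but not without the intensity trend (adjusted p = 0.0987). No stretch of 50 bases of its transcripts occurs in the transcripts of another gene of GENCODE v29. The 250 bases before the annotated start are shown because PLAUR is the abundant member that fell; capitals mark matches, on either strand, to 4 motifs, which are the AP-1 motif TGANTCA, the E-box CACGTG, the GC box GGGCGG and the box named CCAAT, and were chosen after the values were seen.
PLAUR promoter, RefSeq GRCh38.p14, chr19:43670170-43670419, minus strand: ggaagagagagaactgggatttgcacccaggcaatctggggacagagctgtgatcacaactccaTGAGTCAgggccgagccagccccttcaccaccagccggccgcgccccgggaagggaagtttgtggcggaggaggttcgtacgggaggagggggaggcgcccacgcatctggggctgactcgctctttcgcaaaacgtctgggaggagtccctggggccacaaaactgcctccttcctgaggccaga
The window holds 1 match, to TGANTCA, whose first base lies at position -186 (the base before the start being -1), and this motif occurs in 6.57% of the 35116 human promoter windows searched. It is also found in the windows of ANXA2 (1 match, at -127) and SERPINB8 (2 matches), which were not called, and of SERPINB2 (1 match, at -102), which was not tested. A match is a description of the letters, and factor binding was not measured.

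With urokinase not called and its receptor lower, the ratio of receptor to urokinase was lower in SLFN5 siRNA cells. Per kilobase of exon, PLAUR over PLAU was 0.421 and 0.438 in SLFN5 siRNA cells, against 0.685 and 0.666 in control siRNA cells. The values within a group were close to each other and the groups were apart by -0.65 on the log2 scale. Such a ratio within a library does not depend on how libraries were scaled to each other, but with 2 libraries a group an exact permutation test, two-sided, cannot give a p under 0.333, and none is claimed. The tested genes whose profiles over the 4 libraries lay nearest to that of PLAUR, by Euclidean distance between centred log2 values, were BMPR1B (0.0188), GART (0.0244) and SNRPB2 (0.0253). Each had a log2 change between -0.63 and -0.61, and a change close to that of PLAUR follows from how they were picked.

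SERPINE2 (ENSG00000135919) encodes protease nexin-1, a serpin that inhibits urokinase, tissue activator and thrombin and is bound by heparan sulfate at the cell surface. It lies on the minus strand at chr2:223975112-224039319 (GRCh38, GENCODE v29). SERPINE2 had 1150 and 918 equalised counts in SLFN5 siRNA cells, against 607 and 505 in control siRNA cells. Both SLFN5 siRNA libraries were above both control siRNA libraries, and SERPINE2 was called higher, at 1.86 times the control level (log2 change 0.89, SE 0.16, 95% interval 0.55 to 1.23, adjusted p = 0.00149). Leaving out any 1 library gave changes of 0.73 to 1.05 and kept the call, which was lost without the intensity trend (adjusted p = 0.0659). The promoter table gives 2 starts for SERPINE2, and both windows of 250 bases are shown, with capitals as for PLAUR, because this is the inhibitor among the 9 genes that rose; which start the cells used was not analysed here.
SERPINE2 promoter, start 1, RefSeq GRCh38.p14, chr2:224031479-224031728, minus strand: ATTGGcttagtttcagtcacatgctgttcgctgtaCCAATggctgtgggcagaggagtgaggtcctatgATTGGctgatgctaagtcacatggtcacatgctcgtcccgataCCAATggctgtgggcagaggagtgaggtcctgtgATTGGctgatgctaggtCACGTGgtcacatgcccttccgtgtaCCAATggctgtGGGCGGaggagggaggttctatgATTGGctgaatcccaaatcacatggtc
SERPINE2 promoter, start 2, RefSeq GRCh38.p14, chr2:224038641-224038890, minus strand: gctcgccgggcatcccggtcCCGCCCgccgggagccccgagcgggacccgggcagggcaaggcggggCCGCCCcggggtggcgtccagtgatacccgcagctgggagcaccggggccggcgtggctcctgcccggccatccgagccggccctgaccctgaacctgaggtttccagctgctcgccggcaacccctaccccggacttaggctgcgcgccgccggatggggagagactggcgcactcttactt
The window of start 1 holds 7 CCAAT matches on either strand, spread over its whole length, with 1 CACGTG and 1 GGGCGG match. CCAAT occurs at least once in 32.0% of the 35116 windows, but 7 or more times in 7 of them, a share of 0.0199%. Longer stretches around these matches recur within the SERPINE2 window, so its 7 matches are not independent of each other. The window of start 2 holds 2 GGGCGG matches and no CCAAT match. GGGCGG occurs in 42.6% of windows and CACGTG in 6.34%. Among members not called, CCAAT is also found in windows of PLAU (1 match), SERPINB8 (1 match) and PLGRKT (2 matches). GGGCGG is also found in windows of PLAU, ANXA2 and S100A10, which were not called.

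Per kilobase of exon, SERPINE2 over PLAU was 0.188 and 0.125 in SLFN5 siRNA cells, against 0.0992 and 0.0703 in control siRNA cells. The lower SLFN5 siRNA ratio was above the higher control siRNA ratio, and the groups were apart by 0.87 on the log2 scale. Urokinase transcript still exceeded SERPINE2 transcript per length in every library. The profiles nearest to that of SERPINE2 were those of C14orf159 (distance 0.0140), EPPK1 (0.0214) and SPSB2 (0.0227). Each was between 0.87 and 0.90 higher on the log2 scale, which likewise follows from how they were picked. For PLAT the nearest profiles were farther off, PP13439 (0.152), RPL31P61 (0.157) and RP11-324J13.1 (0.182), and these genes had even lower counts than PLAT. They passed the filter on low values through the control siRNA libraries only, so their lower values in SLFN5 siRNA cells carry no information of their own.

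**Figure D2:**
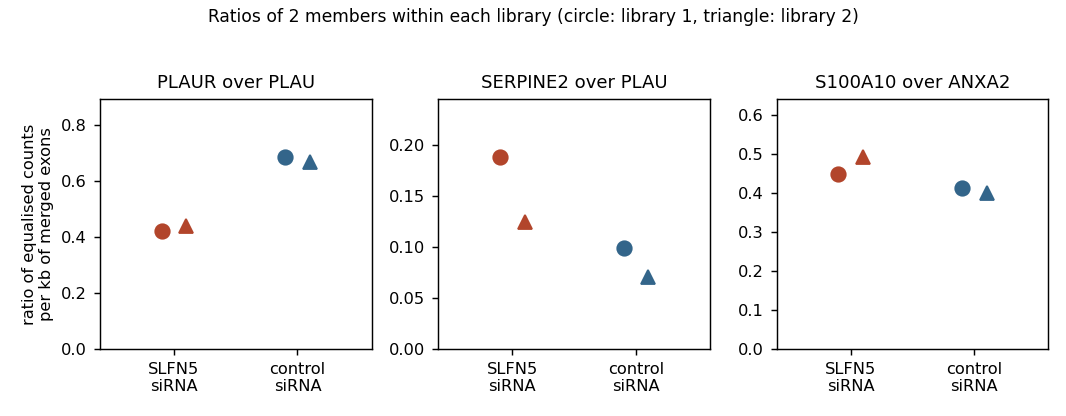
Ratios of equalised counts per kilobase of exon (y axes, linear, from 0) in the 2 SLFN5 siRNA libraries (red, left) and the 2 control siRNA libraries (blue, right), for PLAUR over PLAU, SERPINE2 over PLAU and S100A10 over ANXA2. The first ratio lies between 0.421 and 0.438 in SLFN5 siRNA cells and between 0.666 and 0.685 in control siRNA cells, and no panel has overlapping groups. For single genes the groups did not overlap in 64.6% of all tested genes, and the share among ratios was not counted.

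The clade B serpins among the 9 genes act mainly inside cells. SERPINB8, an inhibitor of furin-like and trypsin-like proteases, had 246 and 204 equalised counts in SLFN5 siRNA cells, against 319 and 249 in control siRNA cells. The higher SLFN5 siRNA library was just under the lower control siRNA library, and SERPINB8 was not called (log2 change -0.33, SE 0.20, 95% interval -0.77 to 0.11, adjusted p = 0.243). It shares 370 exon bases (6.31% of its exons) with HMSD, which was not called either (0.74, adjusted p = 0.267). SERPINB2 encodes plasminogen activator inhibitor type 2, which is abundant in monocytes, keratinocytes and placenta. It had 2 and 0 recovered counts in SLFN5 siRNA cells, against 1 and 4 in control siRNA cells, which is too little to compare. Per kilobase of exon, SERPINB8 over SERPINE2 was 0.325 and 0.336 in SLFN5 siRNA cells, against 0.797 and 0.747 in control siRNA cells. The SERPINE2 transcript was thus the higher of this pair in all libraries, and by more in SLFN5 siRNA cells.

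ANXA2 encodes annexin A2, a calcium-dependent phospholipid-binding protein that docks plasminogen and tissue activator, and it had the highest level of the 9 genes per length. It lies on the minus strand at chr15:60347134-60402883 (GRCh38, GENCODE v29). ANXA2 had 31385 and 34157 equalised counts in SLFN5 siRNA cells, against 36215 and 34865 in control siRNA cells. The groups did not overlap but were close, and ANXA2 was not called (log2 change -0.12, SE 0.11, 95% interval -0.37 to 0.13, adjusted p = 0.476). With limma-voom on recovered counts scaled by library totals the change was 0.00. Its pseudogenes ANXA2P1, ANXA2P2 and ANXA2P3 are near-identical in part, and 5.91% of the 50-base windows of ANXA2 transcripts also occur in ANXA2P2. ANXA2 held between 98.1% and 98.5% of the summed values of the 4 genes in every library, and no pseudogene was called, with log2 changes of 0.24 for ANXA2P1, -0.11 for ANXA2P2 and 0.53 for ANXA2P3.

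S100A10 encodes the p11 light chain, whose carboxyl-terminal lysines bind plasminogen and which is stabilised by annexin A2 in a heterotetramer. It had 2462 and 2939 equalised counts in SLFN5 siRNA cells, against 2619 and 2444 in control siRNA cells. The control siRNA values lay within or just under the range of the SLFN5 siRNA values, and S100A10 was not called (log2 change 0.09, SE 0.12, 95% interval -0.18 to 0.35, adjusted p = 0.633). Per kilobase of exon, S100A10 over ANXA2 was 0.449 and 0.492 in SLFN5 siRNA cells, against 0.414 and 0.401 in control siRNA cells, apart by 0.21 on the log2 scale although neither gene was called. PLGRKT, a transmembrane plasminogen receptor with an exposed carboxyl-terminal lysine, had 351 and 343 equalised counts in SLFN5 siRNA cells, against 333 and 468 in control siRNA cells. The SLFN5 siRNA values lay between those of the control siRNA libraries, and PLGRKT was not called (-0.19, SE 0.19, 95% interval -0.60 to 0.22, adjusted p = 0.497).

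**Figure D3:**
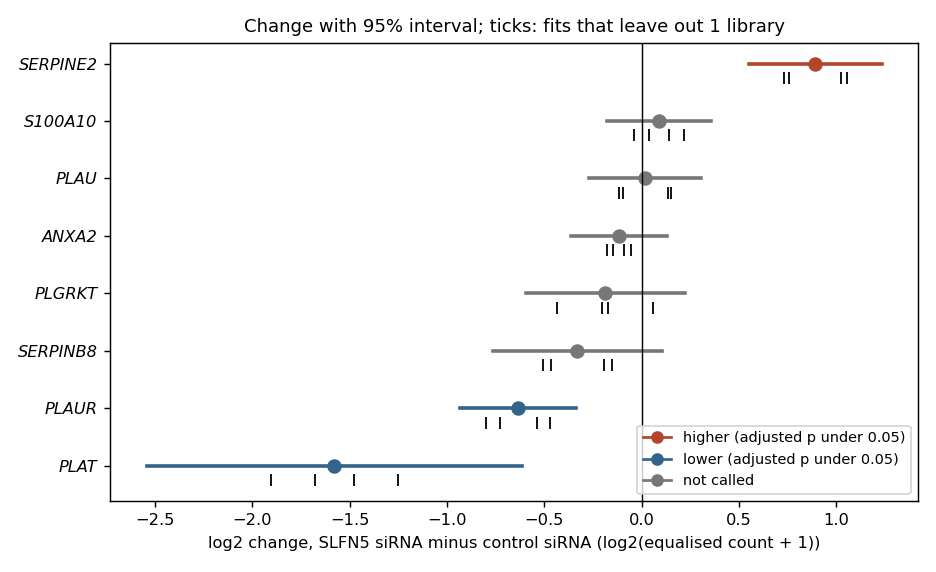
Log2 change of the 8 tested genes, SLFN5 siRNA minus control siRNA (x axis), as points with 95% limma intervals; red is called higher, blue called lower, grey not called, and ticks under each point are the fits that leave out 1 library. SERPINE2 lies at 0.89, PLAUR at -0.63 and PLAT at -1.58, and the ticks of S100A10, PLAU and PLGRKT fall on both sides of 0.

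Ordered by mean equalised count per kilobase of exon, the 9 genes ran ANXA2, S100A10, PLAU, PLAUR, PLGRKT, SERPINE2, SERPINB8, PLAT and SERPINB2, and the order was the same in both groups. ANXA2 stood at 3557 and 3871 in SLFN5 siRNA cells and 4104 and 3951 in control siRNA cells, and S100A10 at 1596 and 1905 in SLFN5 siRNA cells and 1697 and 1584 in control siRNA cells. PLAUR stood at 289 and 363 in SLFN5 siRNA cells and 471 and 538 in control siRNA cells, and PLGRKT at 235 and 230 in SLFN5 siRNA cells and 223 and 314 in control siRNA cells. These neighbours were thus closer to each other in SLFN5 siRNA cells than in control siRNA cells, without overlap in either group. SERPINE2 stood at 129 and 103 in SLFN5 siRNA cells and 68.2 and 56.8 in control siRNA cells, against 42.0 and 34.7 in SLFN5 siRNA cells and 54.3 and 42.4 in control siRNA cells for SERPINB8. Their values came close in control siRNA cells, where the lower SERPINE2 library exceeded the higher SERPINB8 library only narrowly. Exon lengths come from GENCODE v29, which need not be the annotation used for counting, so these levels are approximate.

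Beyond the 9 genes, 6 lists of genes that act around plasminogen were read from the same fit. Of 98 genes listed, 61 were tested, and 26 of these were called, 18 higher and 8 lower (42.6%, beside 29.6% of all tested genes). Without the intensity trend 7 were called. Their median log2 change was 0.14, beside -0.03 for all tested genes. Among receptors that clear activator and serpin complexes or partner the urokinase receptor, 4 of 15 tested genes were higher and 3 lower, with a median of 0.17. LRP1, the main clearance receptor of urokinase and serpin complexes, had 517 and 295 equalised counts in SLFN5 siRNA cells, against 213 and 154 in control siRNA cells (log2 change 1.11, adjusted p = 0.00798), and its call was lost without SLFN5 siRNA library 1 (0.70, adjusted p = 0.0676). LRP8 and VLDLR, receptors of the same family, moved the other way. LRP8 had 1359 and 1236 equalised counts in SLFN5 siRNA cells, against 3042 and 2744 in control siRNA cells (-1.16, adjusted p = 5.88e-05), while VLDLR had 564 and 421 in SLFN5 siRNA cells, against 1056 and 742 in control siRNA cells (-0.86, adjusted p = 0.00601). EGFR, a receptor tyrosine kinase that signals together with the urokinase receptor, was lower as well, at 3600 and 2857 in SLFN5 siRNA cells against 6186 and 5899 in control siRNA cells (-0.91, adjusted p = 0.000337). Of the integrins listed, known partners of the urokinase receptor, ITGA3 was called higher (0.46, adjusted p = 0.00765), while ITGAV, ITGA5, ITGB1, ITGB3 and ITGB5 were not called, at -0.08 to 0.26.

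Of the 8 genes in the list of other plasminogen-binding surface proteins, 1 was higher and 3 were lower, with a median of -0.10. The share called was 50%, beside 29.6% of all tested genes. That list also holds AHNAK and ANXA2R, described below by their link to annexin A2. The glycolytic enzyme ENO1, which is also found at the cell surface as a plasminogen receptor, had 58873 and 57346 equalised counts in SLFN5 siRNA cells, against 83860 and 81788 in control siRNA cells (-0.51, adjusted p = 0.00732). AHNAK, a giant scaffold protein that binds the complex of annexin A2 and S100A10, was lower by a log2 change of -0.66, and the nuclear and secreted protein HMGB1 by -0.62. ANXA2R, named as a receptor for annexin A2, was higher (1.00, adjusted p = 0.0442), at 82.8 and 64.2 equalised counts in SLFN5 siRNA cells and 43.2 and 29.9 in control siRNA cells, and it was called in 8 of 14 alternative settings.

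Of 14 tested activators, inhibitors and substrates of pericellular proteolysis, 5 were higher and 2 lower, with a median of 0.28. The share called was 50%, beside 29.6% of all tested genes. SPINT1, a membrane-bound inhibitor of hepatocyte growth factor activator and matriptase, had 197 and 135 equalised counts in SLFN5 siRNA cells, against 65.8 and 52.9 in control siRNA cells (1.45, adjusted p = 0.00238). The thrombin receptor F2R had 589 and 555 in SLFN5 siRNA cells, against 229 and 275 in control siRNA cells (1.18, adjusted p = 0.000374). The trypsin-activated receptor F2RL1 had 363 and 365 in SLFN5 siRNA cells, against 745 and 714 in control siRNA cells and fell by 1.00 on the log2 scale (adjusted p = 0.000428). F2R and F2RL1, both protease-activated receptors, were thus called in opposite directions. PROCR, the endothelial protein C receptor, was lower at 1020 in both SLFN5 siRNA libraries, against 1790 and 1941 in control siRNA cells (-0.87, adjusted p = 0.000327).

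Of 17 other serpins, 6 were tested, 3 were called higher and none lower, with a median of 0.84. The share called was 50%, beside 29.6% of all tested genes (13.3% higher, 16.3% lower). SERPINB7 had 412 and 501 equalised counts in SLFN5 siRNA cells, against 154 and 208 in control siRNA cells (1.34, adjusted p = 0.000575). SERPINA1, which encodes the elastase inhibitor alpha-1-antitrypsin, had 1439 and 1289 in SLFN5 siRNA cells, against 657 and 608 in control siRNA cells (1.11, adjusted p = 0.000132). SERPINB6 had 1472 and 1465 in SLFN5 siRNA cells, against 934 and 773 in control siRNA cells (0.79, adjusted p = 0.00118). SERPINH1, a collagen chaperone without inhibitor activity, had 1826 and 1825 in SLFN5 siRNA cells, against 1752 and 1798 in control siRNA cells, and was not called (0.04, adjusted p = 0.826). From the list of plasminogen and further inhibitors 3 genes were tested. SERPINI1, which encodes neuroserpin, an inhibitor of tissue activator, had 28.7 and 39.2 equalised counts in SLFN5 siRNA cells, against 10.6 and 8.90 in control siRNA cells (1.69, adjusted p = 0.0199). Its call was lost without SLFN5 siRNA library 2 (1.47, adjusted p = 0.100) and without control siRNA library 2 (1.58, adjusted p = 0.0776). F12, the coagulation factor XII gene, and SERPINF2, which encodes the plasmin inhibitor alpha-2-antiplasmin, were not called, at -0.47 and -0.13.

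Of 25 other annexins and S100 genes, 15 were tested, 4 were called higher and none lower, with a median of 0.11. The share called, 26.7%, lay near the 29.6% of all tested genes. ANXA4, a calcium-dependent membrane-binding protein, had 3904 and 2739 equalised counts in SLFN5 siRNA cells, against 1395 and 838 in control siRNA cells (log2 change 1.595, adjusted p = 0.000313). ANXA7, ANXA6 and S100A13 were higher by smaller changes of 0.52, 0.49 and 0.45, and each lost its call in at least 1 fit that left out a library. S100A6, S100A11, ANXA1 and ANXA5, all abundant in these cells, were not called, at -0.11 to 0.24, like ANXA2 and S100A10.

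**Figure D4:**
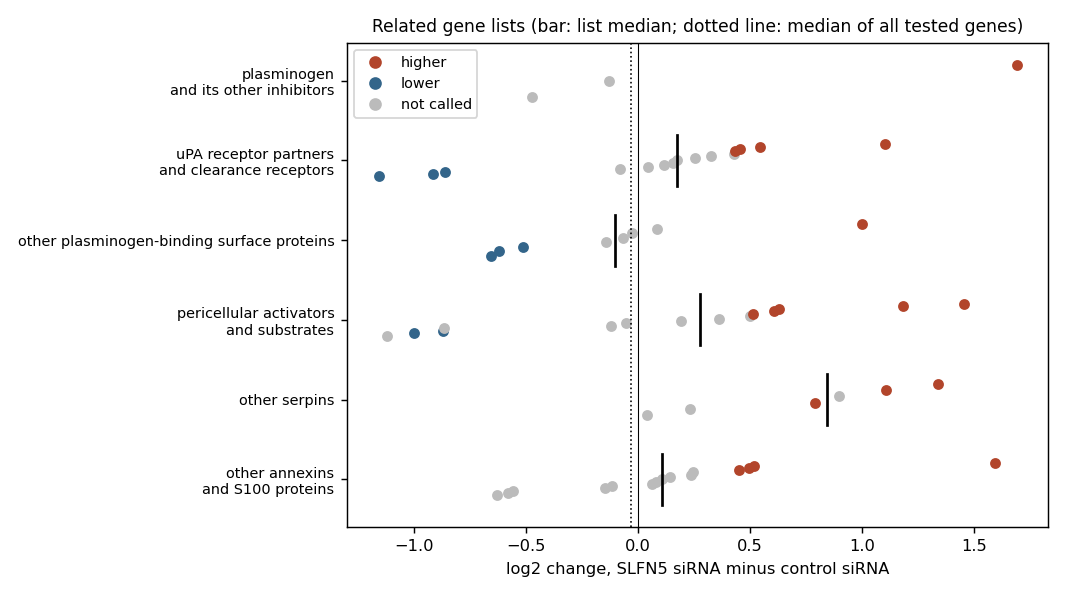
Log2 change of each tested gene, SLFN5 siRNA minus control siRNA (x axis), in 6 related gene lists (rows); red is called higher, blue called lower and grey not called, bars are medians of the lists with at least 5 tested genes, and the dotted line is the median of all tested genes at -0.03. The other serpins have a median of 0.84 with no gene under 0, while LRP8 at -1.16, EGFR at -0.91 and VLDLR at -0.86 stand apart among the receptors.

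Markers of other cell types were low beside most of these values. Summed over 4 genes, leukocyte markers had 2.05 and 2.33 equalised counts in SLFN5 siRNA cells, against 6.10 and 8.40 in control siRNA cells, with CD3E at 0 in all libraries. Over 5 genes, endothelial markers summed to 21.6 and 45.7 in SLFN5 siRNA cells, against 9.23 and 19.2 in control siRNA cells, with PECAM1 at 0. Fibroblast markers summed to 109 and 84.2 in SLFN5 siRNA cells, against 189 and 121 in control siRNA cells, none of the 5 being at 0 over all libraries. The fibroblast and leukocyte sums lay lower in SLFN5 siRNA cells and the endothelial sum higher. Single fibroblast markers differed, as PDGFRB was called lower (log2 change -1.82) while PDGFRA was not called (0.48). Of the endothelial sum, ESAM held 14.4 and 33.1 in SLFN5 siRNA cells, against 4.30 and 8.26 in control siRNA cells. The part of such cells in the results for PLAUR, PLAT and SERPINE2 was not tested. As RNA was taken from whole cultures, fewer cells expressing a gene and less RNA per cell cannot be told apart.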

How the data were processed

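Per the labels' protocols, poly(A) RNA was made into libraries with an Illumina TruSeq kit and read as single ends. Each deposited column gives 1 library's signal over genes, made by the authors from reads. The authors used the build hg19 and edgeR, per the submitters' processing notes. Aligner, counter and annotation: not given in the sources used here. A planned limma test on log2(value + 1) fitted this unit. All 4 libraries entered it, 2 a group, with limma 3.58.1 in R 4.3.3 (prior degrees of freedom 9.60, residual 2), a filter of at least 10 in at least 2 libraries, and Benjamini-Hochberg adjustment over 15640 genes, after the code was tested on simulated data. Adjusted p-values in the text come from this limma fit unless another setting is named.

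The low values that the authors deposited follow the quantile adjustment to a common library size. Inverting it with a dispersion of 0.0162 returned whole counts for 100% of 230636 values (relative tolerance 1e-06). Recovered counts gave depths and limma-voom alternatives. Within groups they differed by more than sampling noise (chi-square over its degrees of freedom: 17.8 in SLFN5 siRNA and 18.0 in control siRNA), so no library is a second copy of another, which leaves unknown whether they came from separate cultures. The alternatives were pseudocount, filter, scaling, voom, no intensity trend, a replicate block and leaving out each library.

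The members and lists were chosen with earlier results of these data known. All 9 members were named, with SLFN5, up to 4 called genes with the largest change in each list, the 3 nearest profiles of each called member, and copies or overlapping genes; other list genes named were chosen after their values were seen. VTN is not analysed here, and 2 further genes of the lists and markers are not reported here, so counts, sums and medians leave them out. Exon lengths and overlaps come from GENCODE v29 (GRCh38) and promoters from RefSeq (GRCh38.p14), where 8 of 9 members had an entry. The deposited table holds no coordinates, and none were converted between builds.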

Additional observations from a re-analysis of the deposited data

How the results depend on the processing

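Of the 3 calls among the 9 genes, none held without the intensity trend (0 called). That setting alters only the variance, so the changes of PLAUR, PLAT and SERPINE2 are the same in it. Their unadjusted limma p there was 0.0244 for PLAUR, 0.00394 for PLAT and 0.00932 for SERPINE2. The share of all tested genes with an unadjusted p under 0.05 in that setting was not counted. With a filter of at least 50 PLAT was not tested and 2 were called. Leaving out 1 library gave 2 to 3 calls among the 9 genes, 21 to 26 in the related lists and 2934 to 4084 of all genes, and a SLFN5 change of -1.70 to -1.20. Without the trend 7 list genes and 1182 genes in all were called. The cause was not tested. The signs of genes near 0 turned in single settings, none of them called there: PLAU ran from -0.115 (without SLFN5 siRNA library 2; -0.0963 without control siRNA library 1) to 0.153 over the fits leaving out a library, S100A10 from -0.0394 (without SLFN5 siRNA library 2) to 0.216, PLGRKT from -0.433 to 0.0596 (without control siRNA library 2) and ANXA2P2 from -0.247 to 0.0284 (without control siRNA library 1), and ANXA2 stood at 0.00196 with limma-voom and library totals. With a replicate block 6703 genes in all, 32 list genes and the same 3 members were called, and C10orf55 too (adjusted p = 0.0317). Libraries that share a number, and S371 or S374 in their titles, deviated together with r = 0.19 over 15640 genes, but no label says whether these mark a shared culture, batch or day, so pairing was not assumed. Depth limits PLAT (127 recovered counts in all libraries) and SERPINB2 (7).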

Other observations

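Genes whose names start with LYPD, together with PINLYP and SLURP1, are only a part of those related to PLAUR by the LY6/PLAUR domain. They were looked up after the values above were seen and had 11 rows in the table. Of these, 3 were tested and 2 called, beside 29.6% called among all tested genes (13.3% higher). LYPD1 had 651 and 762 equalised counts in SLFN5 siRNA cells, against 253 and 270 in control siRNA cells (log2 change 1.43, SE 0.16, limma adjusted p = 9.43e-05). LYPD6 had 137 and 149 equalised counts in SLFN5 siRNA cells, against 52.1 and 82.2 in control siRNA cells (1.11, SE 0.28, limma adjusted p = 0.0116). Both genes were thus higher in SLFN5 siRNA cells, where PLAUR was lower. PINLYP had 13.3 and 16.2 equalised counts in SLFN5 siRNA cells, against 6.03 and 3.22 in control siRNA cells, and was not called (1.53, limma adjusted p = 0.101). It passed the filter on low values through the SLFN5 siRNA libraries only.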
